A study of Bos taurus with 12 samples.

Results

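The low-pressure right ventricle of cattle is described here from 6 RNA libraries, out of 12 in the whole series. The 6 were chosen by the label in the column name, LPAP for low pulmonary arterial pressure (PAP), and by no measured value. The other 6 libraries, from animals with high PAP, were not used. All 6 animals were wild-type Angus steers, a beef breed, of the phenotype that the labels call hypoxia-tolerant. They were raised on hay with grain at 2170 m (7120 ft), weaned and castrated at 6 to 8 months, and slaughtered at 13 to 15 months. Their PAP had been followed by repeated catheter measurements. Each library is a different animal and was made from total RNA of the heart's right ventricle, so the spread given below is the spread between animals and their libraries together. No library came from an animal kept at low elevation or from a left ventricle, and no source used here names the place of sampling within the ventricle.

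The right ventricle pumps blood through the lung. Its myocytes contract by sliding of myosin-based thick filaments along actin-based thin filaments, gated by calcium through the troponins, and they make nearly all of their ATP in mitochondria, mostly from fatty acids and lactate. Most of the proteins involved come in several forms, each from its own gene, and the form used is a mark of the muscle type: the slow, cardiac and fast skeletal forms of myosin, troponin and calcium pump differ, and so do the muscle and non-muscle forms of many enzymes.

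The table gives no depth, read counts or exon lengths, so all 3 were worked out here from the steps between its values. By that estimate the 6 libraries held 25841214 to 31090198 mapped reads, of which 85.8 to 88.1% lay in exons of the table's genes. Values are RPKM (mapped reads scaled by the length of the exons and by the depth of the library), given as mean ± SD over n = 6 unless the lowest, median and highest library are named, and libraries are called by their replicate number. Since RPKM is scaled by exon length, levels of different genes within a library can be set side by side. That relies on the exon lengths behind the values and on how reads were placed, and neither was checked. Of 24616 genes in the table, 16692 were above 0 in at least 1 library and 10522 reached 1 RPKM in at least 3; the latter are called expressed. An expressed gene had a median of 420 reads per library. In whole tissue, fewer cells of a type and less RNA per cell cannot be told apart.

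Levels of cell type markers are described first. They do not test the label: 7 of 9 atrial markers also reached a mean of 1 RPKM, and no list separates right from left. All 16 ventricular myocyte markers reached a mean of 1 RPKM, and 15 of them reached 10 RPKM. IRX4, a transcription factor of the ventricles, was the one below, at 4.20 ± 0.938 RPKM. The summed level of the list ran from 85797 RPKM (replicate 1) to 107946 RPKM (replicate 3). Of 9 listed atrial markers, 7 reached 1 RPKM, but BMP10 was listed at 0, and nearly all of the list's sum, 3104 to 6796 RPKM, was MYL7, described below. Skeletal muscle markers were mostly low: 3 of 13 reached 1 RPKM (ACTA1, CASQ1 and ACTN3), and the fast myosin genes MYH1 and MYH2 had means of 0.00184 and 0.155 RPKM. MYOD1 was listed at 0. A 0 in this table need not mean that a gene was silent, since ribosomal RNA genes of the mitochondria are also listed at 0.

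Cells other than myocytes were visible at much lower levels. All 12 fibroblast markers reached 1 RPKM, led by POSTN at 288 ± 82.4 RPKM and DCN at 274 ± 35.4 RPKM, both proteins of the extracellular matrix. All 12 endothelial markers also reached 1 RPKM, and PECAM1, an adhesion protein of vessel linings, stood at 32.6 ± 9.70 RPKM. Of the smooth muscle and pericyte markers 11 of 12 reached 1 RPKM; the list's sum is mostly desmin (DES, 1282 ± 135 RPKM), which cardiac myocytes also make. Macrophage markers reached 1 RPKM in 11 of 12 cases and T and NK cell markers in 8 of 12, with C1QA at 15.0 ± 2.41 RPKM and CD3E at 6.14 ± 1.49 RPKM. Blood was nearly absent, with β-globin (HBB) at 0.158 to 1.39 RPKM in 5 libraries and 6.12 RPKM in replicate 1. B cell markers reached 1 RPKM in 1 of 8 cases, Schwann cell and neuron markers in 2 of 10, and mesothelial markers in 0 of 7, where CALB2 and LRRN4 were listed at 0. The 2 Schwann cell and neuron markers were S100B at 240 ± 26.2 RPKM and CDH19 at 1.82 ± 0.373 RPKM. Which cells made S100B was not tested.

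Transcripts of the mitochondrial genome were the most abundant class. Its 13 protein genes, which code for core subunits of respiratory complexes I, III and IV and of ATP synthase, took 24.7 ± 2.67% of exon reads and 31.1 ± 2.39% of the summed RPKM. COX1, the catalytic subunit of complex IV, was the highest gene of the table, with 52421 RPKM in the lowest library, a median of 57201 RPKM and 80945 RPKM in the highest. That highest library was replicate 1, and the other 5 lay within 52421 to 58636 RPKM. ATP6, a membrane subunit of ATP synthase, followed at 36977 ± 2389 RPKM, then COII at 25144 ± 2829 RPKM and COX3 at 22498 ± 2911 RPKM, both also of complex IV. The lowest of the 13 was ND5 of complex I, at 1777 ± 244 RPKM, so COX1 lay 33.7-fold above it although both are read from the same circular genome. MT-ND6, the one protein gene on the other strand, was at 3487 ± 1159 RPKM and had the largest coefficient of variation of the 13 (CV, the SD over the mean, 33.2%). Levels of the overlapping pairs MT-ATP8 with ATP6 and MT-ND4L with MT-ND4 are uncertain, since reads in the overlap fit both and no source used here says whether strand was used. The other 24 mitochondrial genes in the table, for ribosomal and transfer RNAs, were listed at 0 in every library.

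**Figure D1:**
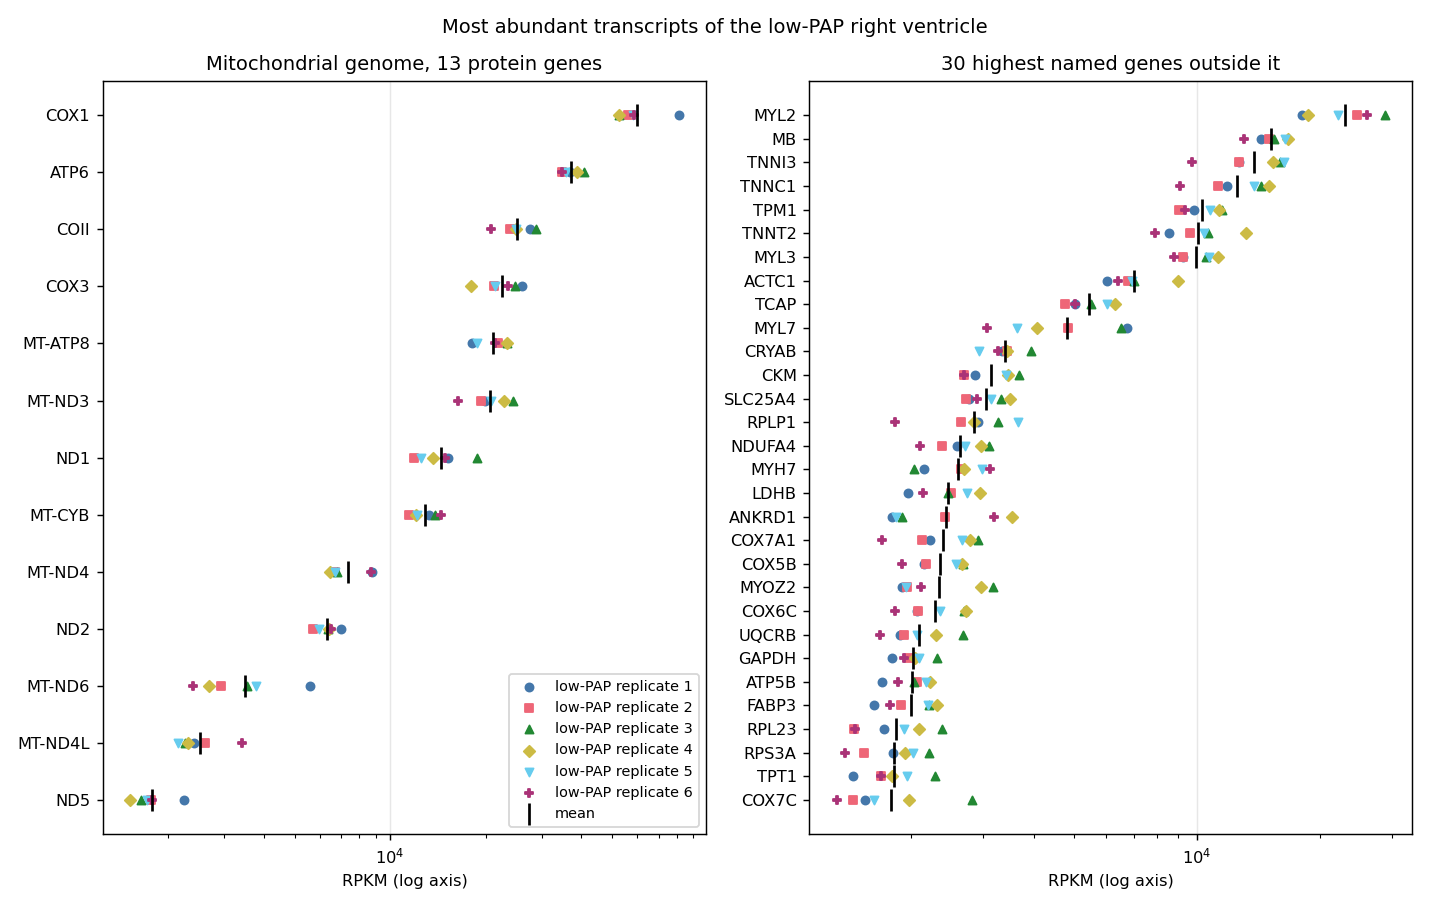
RPKM (log axis) of the 13 mitochondrial protein genes (left) and of the 30 highest named genes outside the mitochondrial genome (right); each coloured symbol is 1 of the 6 low-PAP libraries and the vertical tick is their mean. Replicate 1 stands above the others for COX1 (80945 RPKM), and the contractile genes MYL2 to TCAP fill most of the upper right.

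Outside the mitochondrial genome the top of the list was contractile. MYL2, the regulatory light chain of ventricular myosin, ranged from 18096 RPKM (replicate 1) over a median of 23365 RPKM to 28811 RPKM (replicate 3). Myoglobin (MB), which stores and carries oxygen in red muscle, was next at 15152 ± 1359.6 RPKM and differed little between animals, from 13009 to 16678 RPKM. The regulatory proteins of the thin filament followed as a group of similar levels: TNNI3 (inhibitory troponin) 13768 ± 2549 RPKM, TNNC1 (the calcium sensor) 12537 ± 2219.9 RPKM, TPM1 (tropomyosin) 10311 ± 1030.2 RPKM and TNNT2 (the troponin that binds tropomyosin) 10050.0 ± 1874 RPKM. For these 4 genes the highest mean was less than 1.5 times the lowest. Replicate 6 was the lowest library for TNNI3, TNNC1 and TNNT2. The essential light chain MYL3 stood at 9958 ± 988 RPKM and the actin ACTC1, the backbone of the thin filament, at 7032 ± 1029 RPKM. TCAP, which ties titin to the Z-disc, was at 5444 ± 611 RPKM. Myosin heavy chain, MYH7, had 2610.5 ± 436 RPKM, far below its light chains by RPKM. By reads, however, MYH7 ranked 3rd outside the mitochondrial genome, with 2.35 ± 0.351% of the exon reads outside that genome. Its exon length worked out from the values is 5916 bases, against 778 for MYL2.

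Most other genes among the 30 highest named ones belong to energy metabolism or are ribosomal proteins (RPLP1, RPL23, RPS3A). The light chain MYL7, described below, and the Z-disc protein MYOZ2, at 2345 ± 571 RPKM, were also among them. Muscle creatine kinase (CKM) was at 3136 ± 429 RPKM, the adenine nucleotide translocase SLC25A4, which exchanges ATP for ADP across the inner mitochondrial membrane, at 3061 ± 309 RPKM, and the lactate dehydrogenase LDHB at 2465 ± 368 RPKM. FABP3, which carries fatty acids through the cytosol, had 2005 ± 278 RPKM. Subunits of the respiratory chain (NDUFA4, COX7A1, COX5B, COX6C, UQCRB, COX7C) and of ATP synthase (ATP5B) lay between 1789.6 and 2645 RPKM. CRYAB, a small heat shock protein that binds desmin and titin, had 3391 ± 325 RPKM. ANKRD1, a nuclear and sarcomeric protein known to respond to stretch, had 2445 ± 749 RPKM. Its CV of 30.6% was among the 3 largest of the 30, after MYL7 (31.7%) and COX7C (31.1%), with replicates 4 and 6 at 3528 and 3185 RPKM and the other 4 at 1796 to 2418 RPKM.

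A few genes made up much of this transcriptome. The 10 highest genes held 33.4 ± 1.65% of the summed RPKM, the 20 highest 44.9 ± 1.32% and the 100 highest 61.7 ± 1.49%. Of the 90 genes at 1000 RPKM or more, 13 were mitochondrial. By class, sarcomere and Z-disc genes held 14.7 ± 0.721% of the summed RPKM, nuclear genes of the respiratory chain and ATP synthase 8.92 ± 0.827%, and cytosolic ribosomal proteins 8.08 ± 1.00%. Of the 100 highest genes outside the mitochondrial genome 14 belonged to the first class, 28 to the second and 30 to the third, 26 were other named genes and 2 had no symbol. These 100 genes had short exon sequence in common, with a median of 681.5 bases against 1937 bases over all 10509 expressed genes outside the mitochondrial genome. Among them 75 (75.0%) were shorter than 1000 bases, against 15.9% of the expressed genes. RPKM divides by that length.

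One of the 2 highest genes without a symbol, ENSBTAG00000048267, lies on chromosome 16 at 49263301 to 49266770, which is 1273 bases past the end of TNNT2 (49259286 to 49262028) as the table places them. It had 4128 RPKM in the lowest library, a median of 5353 RPKM and 7164 RPKM in the highest. In each library it stood at 48.9 to 55.6% of the level of TNNT2, and both were highest in replicate 4 and lowest in replicate 6. Whether the 2 records belong to 1 transcript was not tested.

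The forms of each contractile protein were compared within families of related genes. In all 23 muscle families with at least 2 members in the table, the same member led in all 6 libraries, and its range did not overlap that of the next member. The leading member held a median of 96.1% of its family's summed RPKM, and at least 90% in 14 of the 23 families. Among myosin heavy chains MYH7, the slow and cardiac β form, held 96.7 ± 0.489%, followed by MYH7B at 61.1 ± 11.1 RPKM and the non-muscle MYH9 at 13.1 ± 3.48 RPKM. MYH6, the α heavy chain, was not analysed here, since it is not a symbol in the table. No source used here says how reads that match several genes of a family were counted, so the smaller members of near-identical families such as myosins and actins are uncertain.

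The troponins were nearly exclusive. TNNI3 held 99.9 ± 0.156% of troponin I, where TNNI1, the slow skeletal form also made by the fetal heart, was at 6.98 to 17.6 RPKM in 5 libraries and at 43.3 RPKM in replicate 6. TNNT2 held 98.5 ± 0.850% of troponin T, and TNNT1, the slow skeletal form, had 239 and 257 RPKM in replicates 1 and 3 against 80.2 to 119 RPKM in the other 4. TNNC1 held 99.99% of troponin C, with TNNC2, the fast skeletal form, at 0.987 ± 0.219 RPKM. Tropomyosin was more mixed: TPM1 held 84.3 ± 0.932% by RPKM and TPM2 was at 1491 ± 215 RPKM. By reads, which are not divided by length, the share of TPM1 was 66.2%.

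Regulatory light chains and actins had a sizeable second form. MYL7, named as the atrial regulatory light chain, ranged from 3065 RPKM (replicate 6) over a median of 4454 RPKM to 6738 RPKM (replicate 1), which was 11.8 to 37.2% of the level of MYL2 in the same library. MYL4, the atrial essential light chain, did not share that level, with 1.94 to 17.3 RPKM against 9958 RPKM for MYL3. ACTC1 held 90.3 ± 4.83% of the actins. ACTA1, the skeletal α-actin (chromosome 28, 419153 to 421910), varied widely between animals, with 41.1 RPKM in replicate 5, 105 and 106 RPKM in replicates 1 and 4, 286 RPKM in replicate 6, 616 RPKM in replicate 3 and 1056 RPKM in replicate 2. Its level was thus 0.591% of that of ACTC1 in replicate 5 and 15.6% in replicate 2.

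Calcium handling and gap junction genes also followed the cardiac pattern. The sarcoplasmic reticulum pump ATP2A2 (SERCA2) had 343 RPKM in the lowest library, a median of 481 RPKM and 842 RPKM in the highest, and held 99.7% of its family. Its inhibitor phospholamban (PLN) was at 675 ± 151 RPKM; sarcolipin was not analysed here. The calcium release channel RYR2 stood at 81.3 ± 24.8 RPKM against 0.0944 RPKM for the skeletal RYR1. CASQ2, the cardiac calcium store protein, had 580.3 ± 74.7 RPKM. The pore of the L-type calcium channel, CACNA1C, was much lower at 6.14 ± 1.80 RPKM. GJA1 (connexin 43), the gap junction protein of working myocardium, led the connexins with 72.5 ± 19.9 RPKM, lowest in replicate 6 (44.0 RPKM).

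**Figure D2:**
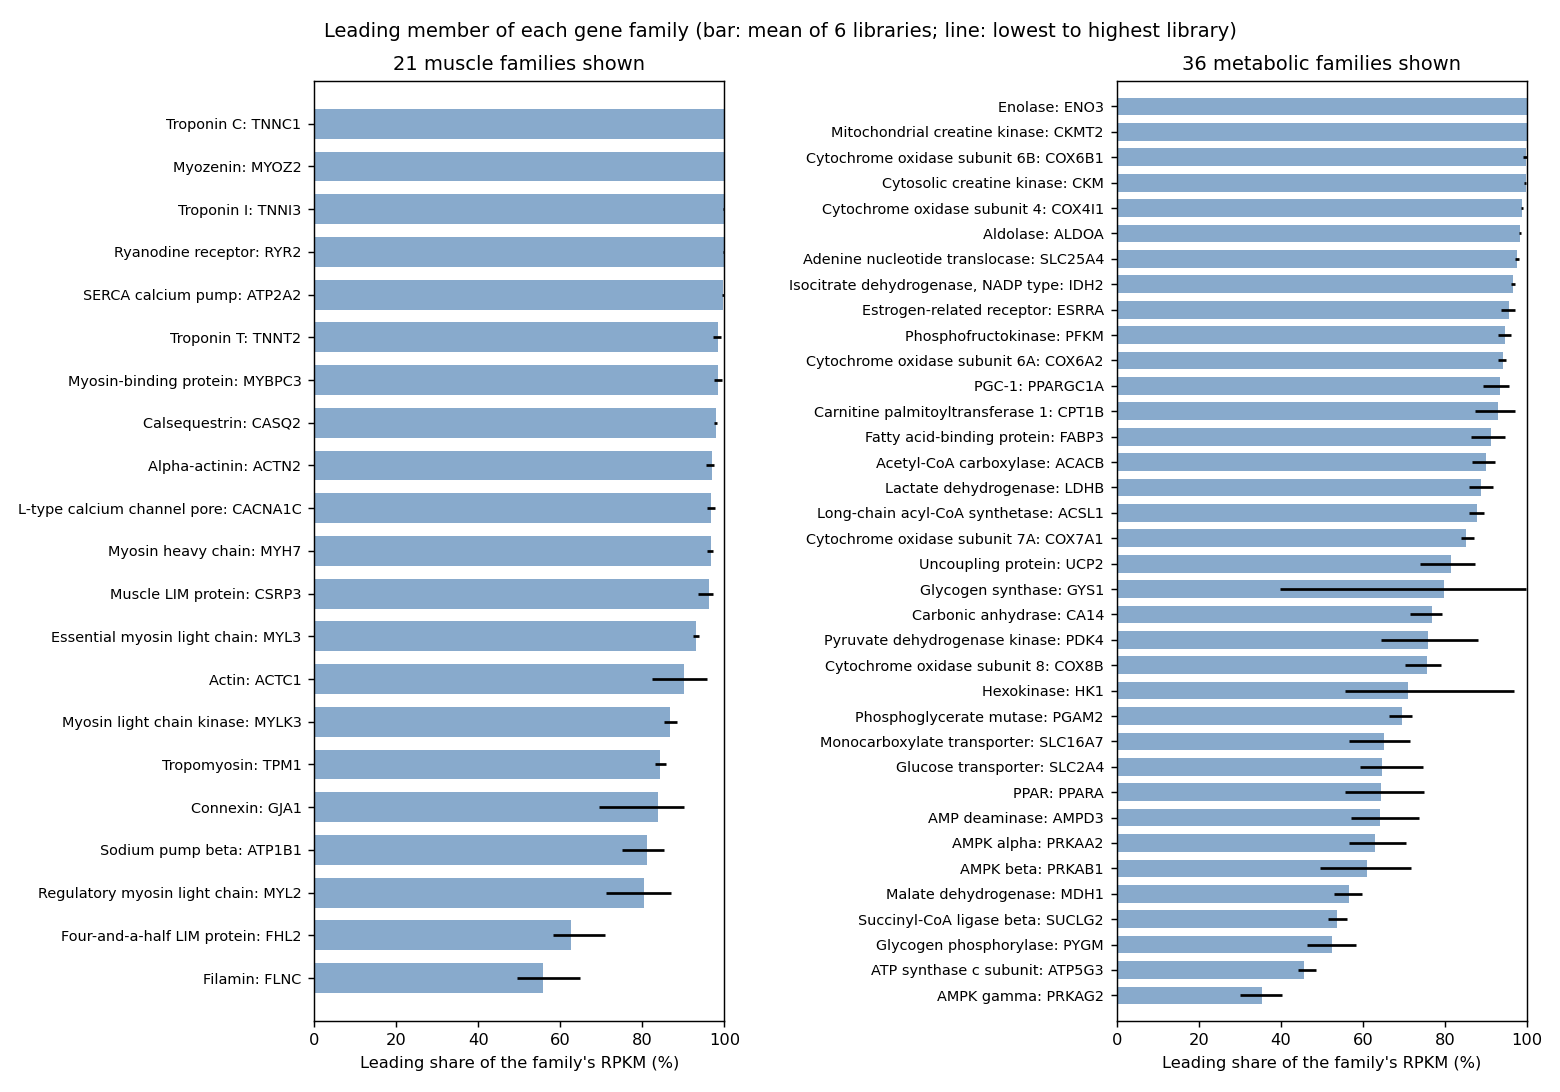
Share (%) of a family's summed RPKM held by its leading member, for 21 of the 23 muscle families (left) and 36 of the 37 metabolic families (right); bars are means over the 6 low-PAP libraries and black lines run from the lowest to the highest library. Bars for muscle end nearer to 100% (median of all 23 families 96.1%) than those for metabolism (median of all 37 families 81.5%), and the lines are long for glycogen synthase and hexokinase.

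Metabolic families were more often shared between members. In 37 such families the leading member held a median of 81.5% of the summed RPKM, it was the same in all 6 libraries in 32, and its range overlapped that of the next member in 8. Enzymes of the creatine kinase shuttle, which carries high-energy phosphate from mitochondria to myofibrils, were nearly exclusive: CKM held 99.7% of the cytosolic forms and CKMT2, at 799 ± 48.6 RPKM, all but a trace of the mitochondrial ones, with 6 reads of CKMT1 over all libraries.

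For glucose use, the muscle forms led in most steps. PFKM, the muscle phosphofructokinase, held 94.7 ± 1.20% of its family at 386 ± 37.3 RPKM. ALDOA, the muscle aldolase, held 98.4% at 881 ± 38.6 RPKM, and the enolase ENO3 was at 925 ± 117 RPKM. ENO1 is not a symbol in the table and was not analysed here. Hexokinase, the first step, was an exception: HK1 led with 26.3 to 39.4 RPKM (mean 32.1 RPKM), whereas HK2, the form usually named for insulin-responsive muscle, had a mean of 0.151 RPKM. The next hexokinase was HK3, at 0.579 RPKM in replicate 6 and 7.20 to 27.5 RPKM in the others. The insulin-responsive glucose transporter SLC2A4 (GLUT4) had 31.5 ± 8.53 RPKM, and the widespread SLC2A1 (GLUT1) 2.40 ± 0.586 RPKM, below SLC2A3 at 11.3 ± 3.33 RPKM.

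Glycogen synthase fell into 2 patterns among the 6 animals. GYS1, the muscle glycogen synthase, was found in every library at 7.65 to 14.6 RPKM. GYS2, the form known from liver, had 11.4 RPKM in replicate 1 and 13.0 RPKM in replicate 4, and 0.0130 to 0.0760 RPKM in the other 4. Both of the high libraries had more GYS2 than GYS1, and no library lay in between. Of the phosphorylases that break glycogen down, muscle PYGM was at 132 ± 14.9 RPKM, brain-type PYGB at 106 ± 32.5 RPKM and liver-type PYGL lower, at 18.6 ± 4.62 RPKM.

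Lactate, pyruvate and fat followed forms known from oxidative muscle. LDHB, the heart lactate dehydrogenase, was 8.17-fold above LDHA. Among the lactate carriers SLC16A7 (MCT2) led with 92.3 ± 12.2 RPKM over SLC16A1 (MCT1) with 48.4 ± 5.89 RPKM, and SLC16A3, the exporter of glycolytic muscle, had 0.674 ± 0.183 RPKM. PDK4, a mitochondrial kinase that inhibits pyruvate dehydrogenase and so spares pyruvate when fat is burned, had 73.2 RPKM in the lowest library, a median of 102 RPKM and 336 RPKM in the highest. Replicates 2 and 6, at 265 and 336 RPKM, stood above the other 4, which reached at most 102 RPKM. CPT1B, the muscle gate for entry of fatty acids into mitochondria, was at 83.7 ± 12.6 RPKM and its liver form CPT1A at 6.28 ± 3.72 RPKM. ACACB, the acetyl-CoA carboxylase that makes the inhibitor of that gate, had 12.2 ± 3.17 RPKM against 1.30 ± 0.276 RPKM for ACACA.

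In the respiratory chain the heart and muscle forms of cytochrome oxidase led in subunits 6A, 7A and 8. COX6A2 had 1028 ± 249 RPKM against 62.7 ± 6.48 RPKM for COX6A1, COX7A1 had 2404 ± 465 RPKM against 336 ± 86.6 RPKM for COX7A2, and COX8B had 367 ± 73.4 RPKM against 116 ± 12.4 RPKM for COX8A. COX4I2, the form linked with lung and low oxygen, had 13.7 ± 0.956 RPKM, while COX4I1 had 1191 ± 139 RPKM. The 3 genes for the c subunit of ATP synthase, which encode the same mature protein, shared its transcripts: ATP5G3 1523 ± 187 RPKM, ATP5G1 1041 ± 135 RPKM and ATP5G2 765 ± 87.8 RPKM. COX6B1 was listed at only 5.91 ± 1.45 RPKM, below every other cytochrome oxidase gene named in this paragraph. Whether its reads were placed elsewhere was not tested.

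Energy sensing and transcriptional control lay at low levels, and several of these families were mixed. The 3 regulatory γ subunits of AMP-activated kinase, which read the AMP level, were nearly equal: PRKAG2 20.8 ± 3.13 RPKM, PRKAG1 19.9 ± 1.83 RPKM and PRKAG3 18.1 ± 4.04 RPKM. The β subunit PRKAB2 was at 8.21, 7.65 and 6.26 RPKM in replicates 2, 6 and 4 and at 2.73 to 3.38 RPKM in the other 3. Among regulators of oxidative genes PPARA led its family with 9.04 ± 2.94 RPKM, PPARGC1A (PGC-1α) had 14.5 ± 2.23 RPKM and ESRRA 49.2 ± 8.27 RPKM. CA14 led the carbonic anhydrases at 69.2 ± 11.1 RPKM.

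The choice of form was then tested in pairs. The 57 pairs were chosen from textbook knowledge, each with a first gene, often the heart or muscle form, and a counterpart as the second. Not every first gene is a heart form: ATP5G1 and ATP5G3 encode the same mature protein, and MDH2 and MDH1 differ by compartment. The difference of log2(RPKM + 1), first minus second, was taken within each library. Its mean was tested by a 2-sided exact permutation of its sign over the 6 animals. In 3 pairs a gene was missing from the table, which left 54 tests, adjusted by the Benjamini-Hochberg method. The smallest p that 6 animals allow is 0.03125, and it was reached by 50 pairs, each with the same sign in all 6 libraries (adjusted exact permutation p = 0.0338). The pairs were chosen with results of these data known, so the counts describe the ventricle and are no independent evidence of a preference. In 45 pairs the first gene was higher, and in 5 its counterpart. All 22 muscle pairs were among the 45, as were 23 of the 32 metabolic pairs. By ratio of mean RPKM, 32 of the 45 differed at least 10-fold and 15 at least 100-fold.

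**Figure D3:**
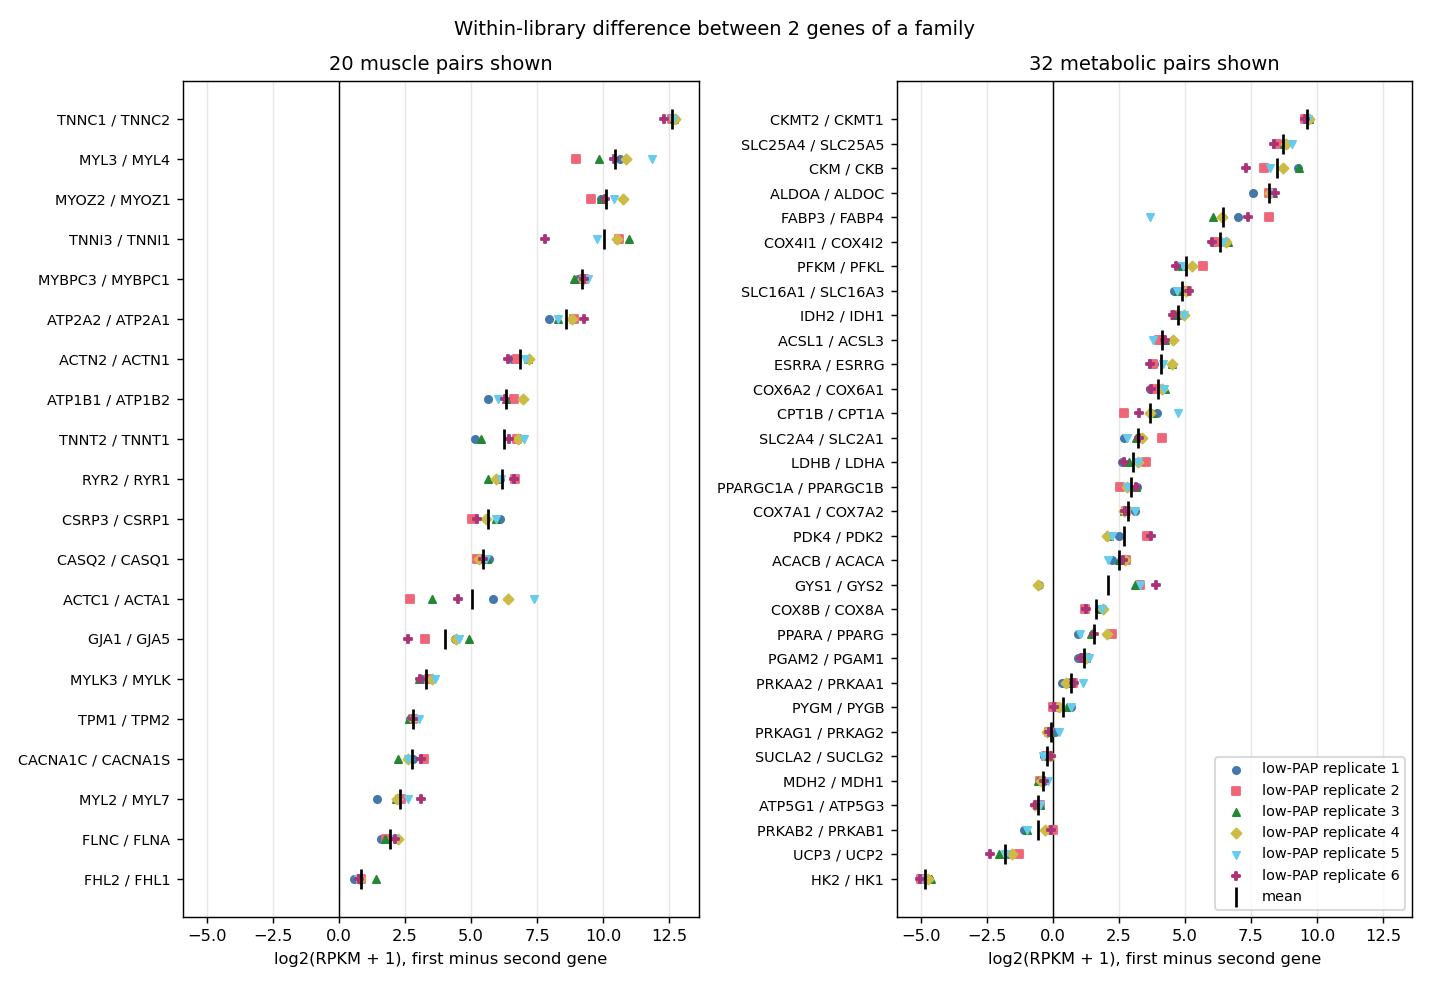
Difference in log2(RPKM + 1) between the first and the second gene of each pair, for 20 of the 22 muscle pairs (left) and the 32 metabolic pairs (right); each symbol is 1 of the 6 low-PAP libraries and the tick is their mean. All muscle symbols lie right of 0, symbols for ACTC1 over ACTA1 are spread widely, and those of GYS1 over GYS2 fall into 2 groups on either side of 0.

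The sizes of these differences ran over a wide range. TNNC1 exceeded TNNC2 by 12.61 ± 0.0623 (log2, mean ± SE) and MYL3 exceeded MYL4 by 10.43 ± 0.392. At the other end FHL2 exceeded FHL1, a related LIM protein, by 0.84 ± 0.116, and PRKAA2 exceeded PRKAA1, the other catalytic subunit of AMP-activated kinase, by 0.69 ± 0.112. MYL2 exceeded MYL7 by 2.30 ± 0.224 and SLC25A4 exceeded SLC25A5, the form of dividing cells, by 8.70 ± 0.0980. A pseudocount of 1 RPKM limits the difference where the second gene is near 0.

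The 5 pairs with the counterpart ahead in all 6 libraries were all metabolic. HK2 minus HK1 was −4.835 ± 0.0738 (log2), and the muscle UCP3 minus the widespread uncoupling protein UCP2 was −1.79 ± 0.156. The other 3 differences were small: −0.55 ± 0.0367 for ATP5G1 minus ATP5G3, −0.39 ± 0.0555 for mitochondrial MDH2 minus cytosolic MDH1, and −0.21 ± 0.0465 for SUCLA2, the ATP-forming subunit of succinyl-CoA ligase, minus the GTP-forming SUCLG2. For MDH and succinyl-CoA ligase the ranges of the 2 genes over the 6 libraries overlapped, although the order was the same within each. In 4 pairs the sign was mixed and the exact permutation test did not pass, namely PYGM with PYGB (adjusted p = 0.0649), PRKAB2 with PRKAB1 (0.0649), GYS1 with GYS2 (0.127) and PRKAG1 with PRKAG2 (0.5). The direction of the mean was the same among the 3 libraries named with 55 and the 3 named with 56 in all 54 pairs.

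The spread between libraries, which holds animals and library preparation together, was described by the CV. The median CV over the 10522 expressed genes was 17.6%, against 4.97% from the number of reads alone, and 81.4% of genes had a CV over 2 times their counting error. In 24.7% of genes the highest library had at least 2 times the level of the lowest. Spread was lower in genes of 10 to 100 RPKM (median CV 13.5%) than in those of 1 to 10 RPKM (21.2%). Rank correlations between libraries over genes (Spearman) were 0.952 to 0.983, as a description of libraries that share the most abundant genes. Genes at 20 RPKM or more with the least spread included CALM (calmodulin) at 235 ± 3.85 RPKM, PALMD at 103 ± 2.63 RPKM and BZW2 at 143 ± 3.82 RPKM. Genes often used as references were less even than these, with GAPDH at 2028 ± 176 RPKM and ACTB at 193 ± 26.9 RPKM. Both still lay below the median CV of 17.6%, GAPDH at 8.68%.

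Replicates 2 and 6 stood apart from the other 4 on the first principal component of the expressed genes, which held 49.4% of the variance. They scored −20.2 and −30.0, and the others 4.5 to 18.1. By rank correlation the split was less clear: replicate 2 stood at 0.978 with replicate 4 and at 0.977 with replicate 6. Replicate 6 was the highest of the 6 libraries in 30.9% of expressed genes and replicate 2 in 25.7%. These libraries do not share a library-name series: replicate 2 is named with 56 and replicate 6 with 55. Their depths, 30950984 and 29361869 mapped reads, lay within the range of the other 4.

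**Figure D4:**
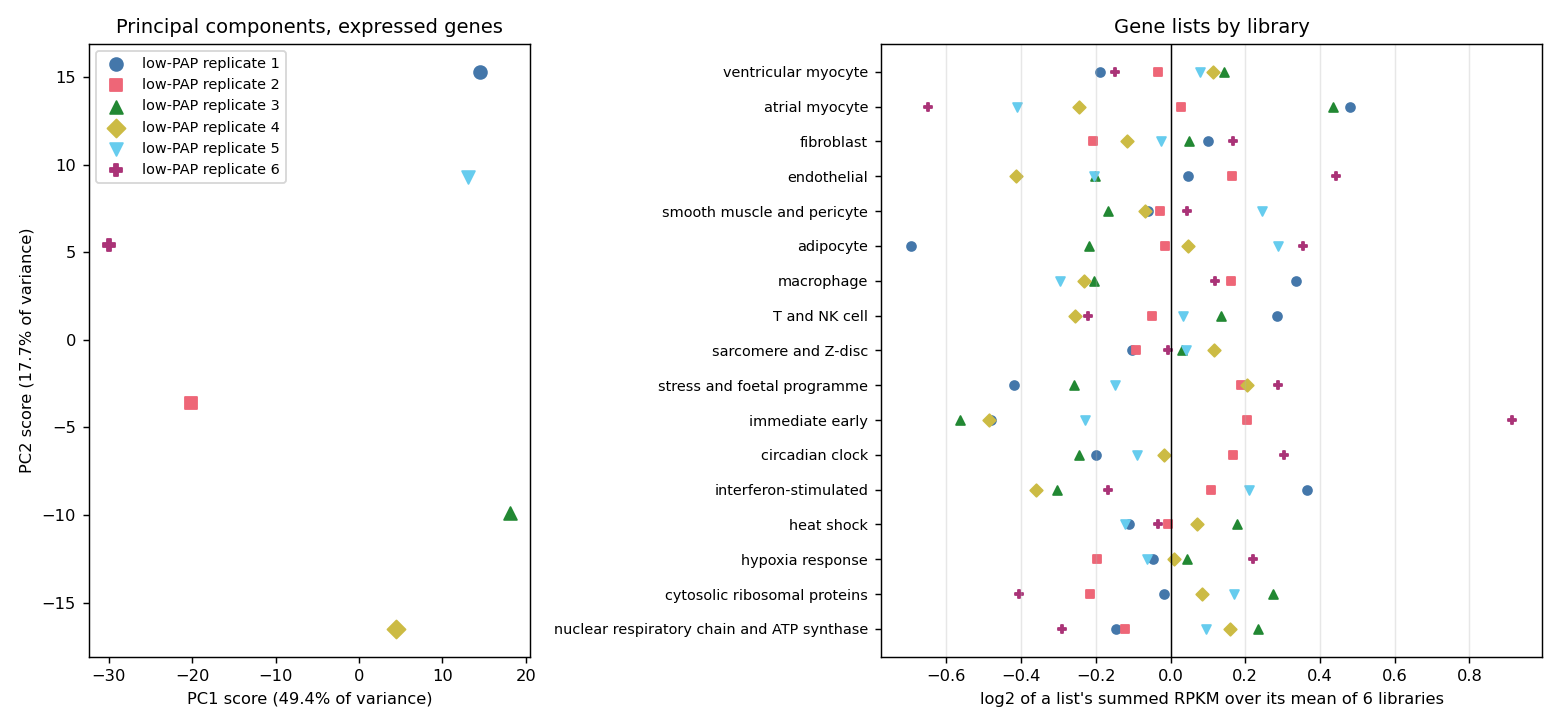
Left, scores of the 6 low-PAP libraries on the first 2 principal components of log2 expression; right, log2 of each list's summed RPKM in a library over its mean of the 6 libraries, 1 symbol per library. Replicates 2 and 6 lie at −20.2 and −30.0 on the first component, and replicate 6 lies furthest to the right for immediate early genes.

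Several gene groups differed in part along that split. Immediate early genes, which cells switch on within minutes of a stimulus, had a summed level of 136 to 171 RPKM in replicates 1, 3, 4 and 5, 231 RPKM in replicate 2 and 378 RPKM in replicate 6. Replicate 6 was the highest library for 14 of the 15 expressed members and replicate 2 for 0, against 30.9% and 25.7% of all expressed genes. Not every member set replicate 2 apart. JUN had 41.4 RPKM there and 42.1 RPKM in replicate 5, and IER3 was lowest in replicate 2, at 3.52 RPKM. FOS had 10.7 and 14.9 RPKM in replicates 2 and 6, 6.87 RPKM in replicate 5 and 1.08 to 1.92 RPKM in the other 3. The nuclear receptor NR4A1 had 13.6 and 29.5 RPKM in replicates 2 and 6 and 2.60 to 5.29 RPKM elsewhere. LBP, a plasma protein that binds bacterial lipopolysaccharide, had 14.3 and 12.5 RPKM in the same 2 libraries and 1.17 to 1.96 RPKM in the others. PDK4 and ATP2A2, given above, were likewise highest there.

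Ribosomal protein genes were lowest in the same 2 libraries. The cytosolic ribosomal proteins summed to 46482 RPKM in replicate 6 and 53019 RPKM in replicate 2, and to 60757 to 74458 RPKM in the other 4. Replicate 6 was the lowest library for 78 of the 104 expressed members and replicate 3 the highest for 72. Over all expressed genes replicate 6 was the lowest in 16.8% and replicate 3 the highest in 10.3%. Nuclear genes of the respiratory chain and ATP synthase did not follow the split of replicates 2 and 6. They summed to 55422 RPKM in replicate 6 and to 79679 RPKM in replicate 3, with replicate 1 (61270 RPKM) below replicate 2 (62329 RPKM). As a share of the summed RPKM of the library, replicate 6 was again the lowest for both classes, at 6.55% and 7.81%. Endothelial markers were highest in replicate 6 for 10 of 12 members, against 30.9% of all expressed genes. Their sum was 211 RPKM there, 174 RPKM in replicate 2 and 117 to 161 RPKM in the others. No source used here gives the time from slaughter to sampling or the RNA quality, and their part in these differences was not tested.

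Among the 20 named genes of highest spread, several had 1 or 2 libraries apart from the rest. ASIP, a secreted antagonist of melanocortin receptors best known from coat colour (chromosome 13, 64234644 to 64239783), had 148 to 222 RPKM in 5 animals and 1.83 RPKM in replicate 3. ULBP3, a ligand of an NK cell receptor, was also lowest in replicate 3, at 0.279 RPKM against 2.76 to 14.6 RPKM. FKBP5, a chaperone of the glucocorticoid receptor, had 12.3 RPKM in replicate 5 and 56 to 137 RPKM in the others. SCN3B, an accessory sodium channel subunit, ranged from 5.76 RPKM (replicate 1) over a median of 18.2 RPKM to 67.6 RPKM (replicate 6).

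**Figure D5:**
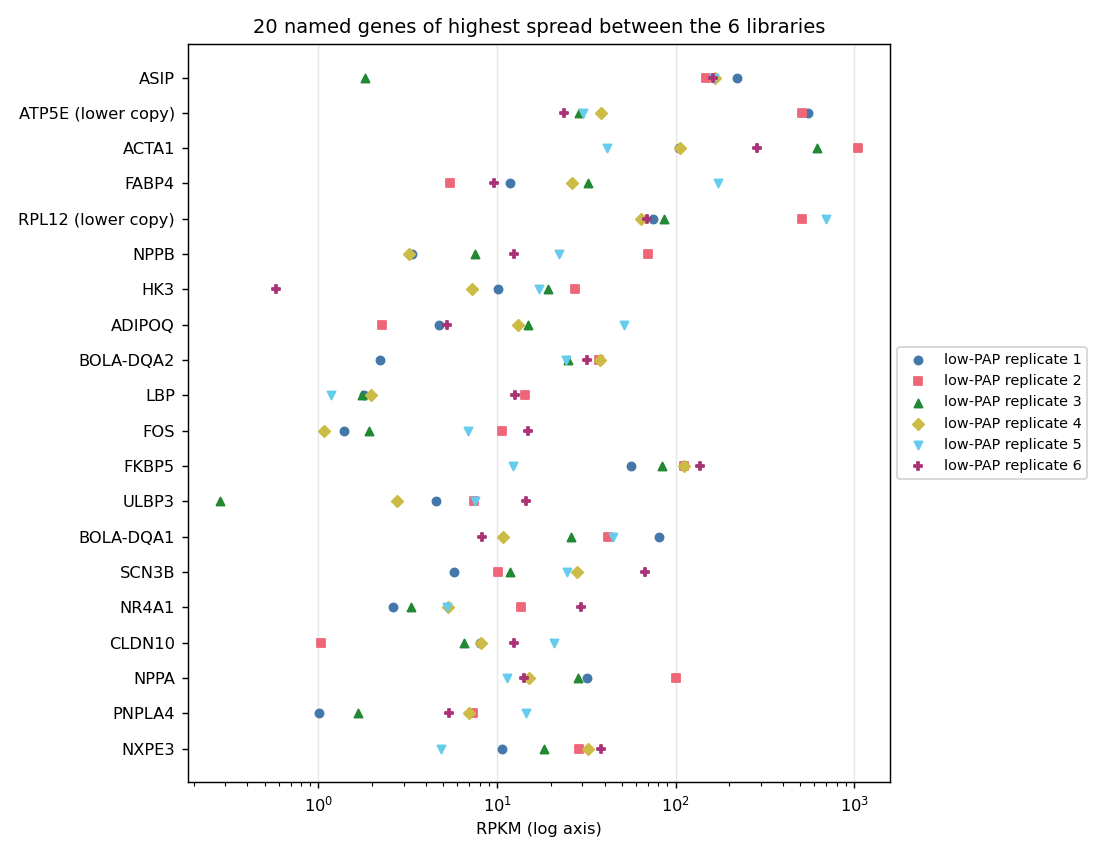
RPKM (log axis) of the 20 named genes with the highest SD of log2(RPKM + 1) among genes with a mean of at least 5 RPKM; each symbol is 1 of the 6 low-PAP libraries. ASIP is 1.83 RPKM in replicate 3 and 148 to 222 RPKM in the others, and the 2 copies marked as lower are high in 2 libraries each.

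Natriuretic peptides, hormones that the heart releases under stretch, were uneven between libraries. NPPA had 101 RPKM in replicate 2 and 11.4 to 31.7 RPKM in the other 5. NPPB had 70.4 RPKM in replicate 2, 22.2 RPKM in replicate 5, and 3.23 to 12.4 RPKM in the other 4. Replicate 2 was thus the highest of the 6 libraries for NPPA, NPPB and ACTA1, members of the list of stress and fetal genes, of which all 13 measured reached 1 RPKM. Other members did not share that order, since TNNI1, SCN3B and the heavy chain MYH7 were highest in replicate 6 and ANKRD1 in replicate 4. Of the 13 members, replicate 6 was the highest library for 7 and replicate 2 for 4, against 30.9% and 25.7% of all expressed genes.

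Fat cell genes were highest in replicate 5. FABP4, the fatty acid-binding protein of adipocytes, had 173 RPKM there and 5.48 to 32.3 RPKM in the others. Adiponectin (ADIPOQ) had 51.3 RPKM there against 2.28 to 15.0 RPKM. The lipid droplet genes PLIN1 (listed as PLIN) and CIDEC had 9.03 and 9.76 RPKM in replicate 5, against at most 2.06 RPKM elsewhere. Replicate 5 was the highest library for 5 of 7 expressed adipocyte markers, against 16.4% of all expressed genes. The summed level of the list, 280 to 580 RPKM, had LPL, which myocytes also make, as its largest part and was highest in replicate 6. The part of fat tissue in other differences of replicate 5 was not tested.

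Genes with near-identical copies gave another pattern. The RPL12 gene on chromosome 11 had 512 and 698 RPKM in replicates 2 and 5 and 64.1 to 86.6 RPKM in the other 4, while the RPL12 gene on chromosome 10 had 184 and 226 RPKM in those 2 libraries and 490 to 865 RPKM in the other 4. The ATP5E copy on chromosome 22 had 550 and 509 RPKM in replicates 1 and 2 and 23.6 to 38.0 RPKM elsewhere, and the ATP5E gene on chromosome 13 was again lowest in those 2 libraries, at 498 and 445 RPKM. Summed over copies, RPL12 had 784 ± 146 RPKM with a CV of 18.6%, close to the median gene. The MHC class II genes BOLA-DQA1 and BOLA-DQA2, which differ strongly between cattle haplotypes, were also uneven: BOLA-DQA2 had 2.20 RPKM in replicate 1 and 24.2 to 37.9 RPKM in the others, and BOLA-DQA1 was highest in replicate 1, at 80.8 RPKM. The part of read placement between copies in these patterns was not tested.

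The library names form 2 series, 55 and 56, with 3 low-PAP libraries each, and the table's headers give each series a sequencing lane of its own, so that name and lane cannot be told apart. No gene was called different between the series in limma with Benjamini-Hochberg adjustment (0 higher and 0 lower in 56 of 10522 tested, 0.0% called in either direction). At an unadjusted p under 0.05 limma found 116 genes, and limma-voom on the recovered reads called 0 with 95 at an unadjusted p under 0.05. Both counts are below the share of 0.05 of tested genes that chance alone would give. Each series holds a library that stood apart on the first component (replicate 2 in 56, replicate 6 in 55). With 3 libraries per series, 0 called genes does not show that the series are alike. PLIN2, a lipid droplet protein, was among the genes of smallest p, with 16.4 to 20.4 RPKM in the 56 series and 28.3 to 48.8 RPKM in the 55 series (log2 difference −1.08 ± 0.215, limma adjusted p = 1). Leaving out replicate 2, 4 or 6 gave 1 called gene each: ENSBTAG00000047547 without replicate 2, the ATP5E copy on chromosome 22 without replicate 4, and PLIN2 without replicate 6.

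All 6 animals lived with the low oxygen of altitude. Genes of the response to hypoxia were measured without a low-elevation group, so their levels are a description. Of 20 listed genes 19 reached 1 RPKM. The transcription factor EPAS1 (HIF-2α) had 44.4 ± 7.01 RPKM and HIF1A 9.95 ± 4.02 RPKM, the latter with 16.3 and 13.6 RPKM in replicates 6 and 2 and 6.89 to 8.86 RPKM elsewhere. EGLN3, an oxygen-dependent hydroxylase that marks these factors for breakdown, had 48.5 ± 14.0 RPKM. LDHA led the list at 302 ± 43.0 RPKM, VEGFA, a growth factor for vessels, had 15.6 ± 4.28 RPKM, and CA9 was at 0.367 ± 0.108 RPKM.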

How the data were processed

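The authors deposited 1 table of RPKM per gene and library, with chromosomes and positions, per the file headers. Aligner, genome build, annotation and the handling of reads that match several genes: not given in the sources used here. The 6 LPAP columns were used, 1 per animal. A column with the authors' mean was not used, since its ratio to the mean of the 6 fell to 0.857, the ratio of 6 to 7 libraries. The table holds no exon lengths, depths or counts. RPKM values are whole multiples of 1 read, from which exon length, depth and reads per gene were recovered here (all 10522 expressed genes whole within 0.05 reads). The 3-read floor for 1 kb of exon was 0.0965 to 0.116 RPKM. Floors and counting errors cover counting only.

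A gene was analysed where 3 or more libraries reached 1 RPKM. Pairs of forms were tested by exact sign permutation of log2(RPKM + 1). The name series were compared with limma 3.58.1 (R 4.3.3; trend and robust, log2(RPKM + 1), Benjamini-Hochberg threshold 0.05), since the values are not counts. Other steps used Python 3.11.15. Scripts were tested on simulated data. Genes named are the 30 most abundant, family and list members, list leaders, the 20 of highest and 10 of lowest spread, and those of smallest p between name series. ENSBTAG00000048267, ENSBTAG00000047547 and the copies of RPL12 and ATP5E were singled out after their values were seen. Members and lists were chosen with earlier results of these data known. Symbols are the table's; PLIN stands for PLIN1. Some genes of the families, pairs and lists are not reported here by name and are left out of the plots, but they remain in the counts.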

Additional observations from a re-analysis of the deposited data

Results flagged for a closer look

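Of 262 named genes 29, and the mitochondrial share of exon reads, had 1 library far from the other 5, by the gap to the nearest library as a share of the whole range (Dixon's test). Chance flags about 1 in 20 groups. Over all expressed genes 613 of 10522 (5.83%) did so. The named genes include 20 chosen for their spread, and also genes that do not count as expressed, so the shares are not directly comparable. The library apart was replicate 6 in 10 cases, replicate 1 in 9, replicate 5 in 4, replicates 2 and 3 in 3 each and replicate 4 in 1. Among the 613 of all expressed genes it was replicate 6 in 226, replicate 2 in 132 and replicate 5 in 99. Replicate 1 was apart in 83 of them, replicate 4 in 42 and replicate 3 in 31.

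Replicate 1 had 29.91% of exon reads in mitochondrial genes against 22.55 to 24.59% in the others. Among those genes COX1 stood out there, at 80945 RPKM, and so did ND5, at 2235 RPKM. The matrix gene DPT was high at 207 RPKM (others 151 to 165), as were ALDOC, the brain aldolase, at 3.42 RPKM and the globin HBB at 6.12 RPKM. Low in replicate 1 were IDH2, a mitochondrial dehydrogenase, at 405 RPKM (others 500.4 to 543), AK1 at 87.8 RPKM (others 105 to 114) and ESRRA at 32.9 RPKM (others 50.4 to 56.3).

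Replicate 6 was high for JUN, an immediate early factor, at 72.6 RPKM (others 30.2 to 42.1). It was also high for TNNI1 at 43.3 RPKM, SCN3B at 67.6 RPKM, UCP2 at 19.2 RPKM and GYS1 at 14.6 RPKM. The mitochondrial MT-ND4L reached 3426 RPKM and PALMD 108 RPKM (others 101 to 103). Low-level genes apart there were AMPD3, an AMP deaminase, at 2.56 RPKM, HK2 at 0.253 RPKM and ENO2 at 0.0484 RPKM, the last from 3 reads.

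Replicate 5 was high for the fat cell genes FABP4 at 173 RPKM and ADIPOQ at 51.3 RPKM, for KCNJ8, a potassium channel of pericytes, at 184 RPKM (others 91.3 to 125), and for COX6B2 at 0.0511 RPKM, listed at 0 in the others, which is 1 read. Replicate 2 was high for NPPA at 101 RPKM and NPPB at 70.4 RPKM and low for LDHA at 218 RPKM (others 295 to 333). Replicate 3 was low for ASIP at 1.83 RPKM and high for COX6B1 at 8.73 RPKM and for ALAS2, a heme enzyme of red cells, at 0.0597 RPKM. That last value is 3 reads, so the gaps of ALAS2, ENO2 and COX6B2 are single counts and show no difference between libraries. Replicate 4 was high for ACTC1 at 8988 RPKM (others 6016 to 7029).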

How the results depend on the processing

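No paired analysis was possible between PAP groups because only the low-PAP group is described, and its replicate numbers name different animals. The genes of each pair were compared within each library, as described above. The 45 and 5 pair calls held their counts with a pseudocount of 0.1 RPKM and on the linear scale. Without replicates 2 and 6, a setting chosen after seeing the data, the PRKAG1 to PRKAG2 difference was 0.000615. The 20 highest genes held 34.8% as a share of reads and 27.2% without the mitochondrial genome. Measured in reads, 32 of 60 leading shares moved by over 1 SD, and the leaders of the AMP-activated kinase α and γ families were others (PRKAA1 and PRKAG3). The median CV was 15.9% after quantile normalization, 20.3% scaled outside the mitochondrial genome, 16.3 to 17.9% leaving out 1 library each, and 13.5% without replicates 2 and 6. The count of expressed genes stayed within 1.5 times with 1 RPKM asked of all 6 libraries and with 0.5 RPKM in 3. Genes called between name series ranged from 0 to 1 leaving out 1 library each and were 0 under the other settings. Also chosen after seeing the data, sums over copies gave a CV of 18.6% for RPL12 and 13.4% for ATP5E. Depth limits genes near 1 RPKM, where the median counting error for 1 to 10 RPKM was 7.02%.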

Other observations

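Heat shock genes were abundant, with all 18 listed genes in the table at 1 RPKM or more. After CRYAB the highest were HSPE1, a mitochondrial co-chaperone, at 721 ± 127 RPKM and HSPB1 at 620.1 ± 95.8 RPKM. HSPB6, a small heat shock protein of muscle, had 139 RPKM in replicate 2, 401 RPKM in replicate 6 and 215 to 280 RPKM in the other 4.

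Clock genes reached 1 RPKM in 15 of 16 cases. PER1, a repressor of the clock, had 17.9 and 13.6 RPKM in replicates 6 and 2 and 6.86 to 10.3 RPKM in the other 4, and NR1D2 had 8.08 and 6.34 RPKM in replicates 2 and 6 against 3.32 to 5.13 RPKM. DBP, an output gene of the clock, was at 2.31 RPKM in replicate 6 and 6.03 RPKM in replicate 5. No source used here names the hour of sampling.

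Interferon-stimulated genes were low, with 13 of 17 at 1 RPKM or more and a summed level of 51.8 RPKM (replicate 4) to 85.5 RPKM (replicate 1). Replicate 1 was the highest library for 7 of the 13 expressed members, against 8.04% of all expressed genes. IFI6 ranged from 5.82 RPKM in replicate 4 to 18.3 RPKM in replicate 5, and MX1, an antiviral GTPase, from 2.49 RPKM in replicate 3 to 7.19 RPKM in replicate 1.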
